A study of Mus musculus with 2 samples.

Results

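The collagen genes of mouse skin are described here in 2 RNA sequencing libraries of whole skin from 3-day-old C57BL/6 mice, 1 labelled wildtype and 1 labelled RNF31fl/fl-K14-cre. Members were all genes of the deposited gene table whose symbol has the form of a collagen chain (Col, the type, a, the chain), which gave 44 of 44166 genes. HOIP, the product of Rnf31, is the catalytic part of the enzyme that makes linear ubiquitin chains, and in the genotype labelled RNF31fl/fl-K14-cre its floxed allele is paired with a Cre recombinase driven by the keratin 14 promoter. That promoter is active in basal keratinocytes, so the recombinase is expected in epidermis and hair follicle epithelium and not in dermal fibroblasts. The wildtype group carries neither the floxed allele nor the transgene, as far as its label says. The libraries are called WT and KO here after their titles, and the sources used here give neither the number of animals behind each nor the positions of the loxP sites.

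Collagens are extracellular proteins of 3 chains wound into a triple helix, which requires a glycine in each repeating triplet of residues. Fibrillar collagens form the load-bearing fibres of the dermis, FACIT collagens sit on those fibres, collagen IV forms the sheet of basement membranes, and collagen VI forms beaded filaments around cells. At the junction of epidermis and dermis, collagen XVII is a transmembrane protein of the hemidesmosome of basal keratinocytes, and collagen VII forms the anchoring fibrils that hold the basement membrane to the dermis. Dermal fibroblasts make most of the fibrillar collagen of skin.

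The glycine repeat can be read from the coding sequences, and its longest run was longer in every fibrillar gene than in any basement membrane or anchoring gene, with the cartilage genes ranging from 60 to 339 triplets. The spliced coding stretches below are the first 5 triplets of the longest uninterrupted repeat of 1 member of the fibrillar class, 2 of the basement membrane class and 1 of the anchoring class, from GENCODE mouse transcripts (GRCm38), with the glycine codon (GGN) that opens each triplet in capitals and any other glycine codon in lower case. The genomic span of a stretch includes introns where it crosses exons.
Col3a1 (chr1:45323762-45325368, + strand): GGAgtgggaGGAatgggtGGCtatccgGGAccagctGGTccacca
Col4a1 (chr8:11247069-11267614, - strand): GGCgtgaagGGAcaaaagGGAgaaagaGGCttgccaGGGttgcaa
Col15a1 (chr4:47270324-47270368, + strand): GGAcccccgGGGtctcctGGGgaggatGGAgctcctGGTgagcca
Col17a1 (chr19:47664991-47665866, - strand): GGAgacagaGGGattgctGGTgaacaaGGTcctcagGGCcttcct
In Col3a1 the repeat ran on for 344 triplets without a break, and in the 8 fibrillar genes the longest repeat was 216 to 344 triplets. In Col4a1 the repeat was broken into 22 runs of at least 5 triplets, the longest of 40 triplets, although 78.4% of its codons lay in such runs. Col15a1 had 11 runs, the longest of 30 triplets, and 25.02% of its codons in runs. Col17a1 had 14 runs, the longest of 55 triplets, and Col7a1 had 20, the longest of 75 triplets. Col26a1 had the shortest longest repeat of the 44 genes, 23 triplets.

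The library labelled WT had 19619928 reads (92.56% aligned) and the library labelled KO 20511407 (93.59% aligned). Expression values are the authors' deposited FPKM, which relate fragments to transcript length and to sequencing depth. A single library stood for each genotype, so spread between animals is unmeasured, no test between genotypes was made, and each difference given here is a difference between these 2 libraries. A gene was called higher or lower in KO where log2 of (FPKM + 1) in KO over (FPKM + 1) in WT reached 1 or -1. This is a 2-fold difference on that scale, which understates the difference of low genes. Calls were made for genes that reached a floor of 1 FPKM in 1 or both libraries (14541 of all genes, 30 of the 44 collagen genes). Ratios are of FPKM without the added 1, and their 95% intervals are exact binomial (Clopper-Pearson) intervals on estimated fragments, which cover counting error only. Rnf31 was at 3.95 in WT and 5.40 in KO, so the targeted gene was not lower under the KO label, and KO means the library labelled KO throughout.

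Of the 30 collagen genes above the floor, 1 was higher in KO (Col17a1) and 2 were lower (Col15a1 and Col26a1), and 27 were inside the 2-fold rule. Among all 14541 genes above the floor 7.59% were called higher and 4.09% lower, against 3.33% and 6.67% of the collagen genes. Counts this small are near the background shares and set the collagen genes apart from other genes in neither direction. The median log2 ratio of the collagen genes was -0.17 and that of all genes -0.08. Of all large differences 65.0% were higher in KO, and 54.5% were when the 50 most abundant genes were left out of the scaling, which lowers every ratio by the factor 0.914. Their interquartile range was 0.80, against 0.65 for all genes, so the collagen ratios were spread rather than alike. Ratios were below 1 for 19 of the 30 genes (63.3%), where 57.4% of all genes lay below 1. In the authors' deposited table, 0 of the 34 collagen genes they tested had a q-value below 0.05, where 0.616% of all 15589 genes tested did, and the lowest q-value of a collagen gene was 0.146. That test compares 2 libraries and not 2 genotypes.

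**Figure D1:**
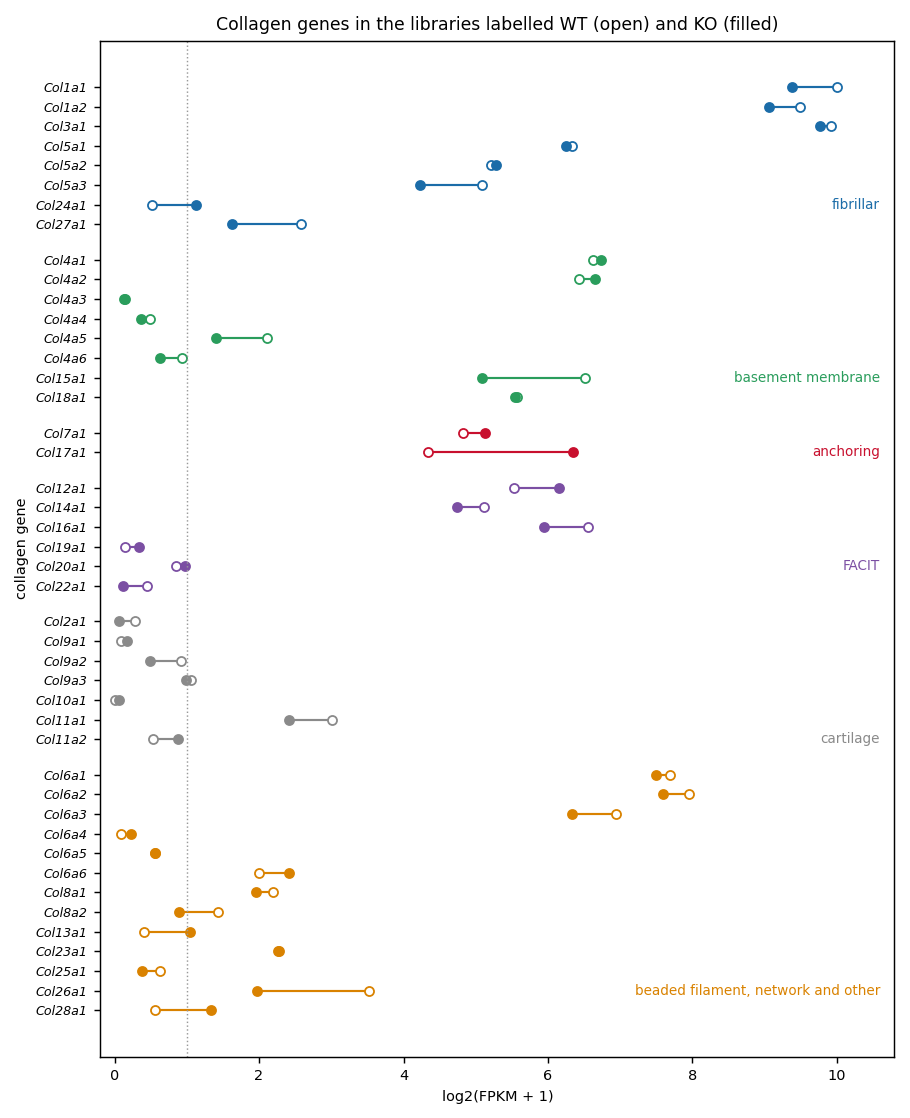
Level of each of the 44 collagen genes, as log2(FPKM + 1), in the library labelled WT (open circles) and the library labelled KO (filled circles), grouped and coloured by class; the dotted line marks an FPKM of 1. Col1a1, Col1a2 and Col3a1 lie far to the right in both libraries, and the longest line between circles belongs to Col17a1.

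The collagen genes summed to an FPKM of 4015 in WT and 3237 in KO, a ratio of 0.806, which was 0.595% and 0.436% of the FPKM of all genes. Col1a1, Col1a2 and Col3a1 made up 67.4% of the collagen sum in WT and 63.9% in KO. In bulk skin, fewer cells of a type and less RNA per cell cannot be told apart, and the share of any gene also depends on the other genes of the library. Basal keratinocyte markers summed to an FPKM of 2044 in WT and 15947 in KO, nearly all of it Krt14 (816 and 12590.1) and Krt5 (1054 and 3014).

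The major fibrillar collagen genes of the dermis had ratios below 1, by different amounts, and none was past the 2-fold rule. Of all genes above the floor, 12.6% had a lower log2 ratio than Col1a1, 21.9% than Col1a2 and 43.4% than Col3a1. Col1a1 (ENSMUSG00000001506, chromosome 11, 94936224 to 94953042 in GRCm38) encodes the chain present in 2 copies per molecule of collagen I, and its FPKM was 1022 in WT and 666 in KO. Its partner chain gene Col1a2 (chromosome 6) was at 720.1 in WT and 535 in KO. The ratio was 0.651 for Col1a1 (95% counting interval 0.645 to 0.658) and 0.743 for Col1a2 (0.734 to 0.753), both inside the 2-fold rule. Col1a1 thus stood at 1.42 times Col1a2 in WT and 1.24 times in KO. Col3a1, the gene of the homotrimeric collagen III of young and healing dermis, was closer to equal, at 964 in WT and 868 in KO (ratio 0.900, 0.891 to 0.909). The level of Col3a1 relative to Col1a1 was 0.943 in WT and 1.30 in KO, and Col3a1 replaced Col1a1 as the most abundant collagen transcript. Among all genes ranked by FPKM, Col1a1 stood at place 95 in WT and 175 in KO, and Col3a1 at place 104 and 133.

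Collagen V is incorporated into collagen I fibres and limits their diameter, and the ratios of its chains differed. Col5a1 was at 79.7 in WT and 74.9 in KO (ratio 0.941, 0.915 to 0.967), a ratio that passed 1 under median of ratios scaling. Col5a2 was at 36.2 and 38.1 (ratio 1.05, 1.01 to 1.10), a ratio that was below 1 without the 50 most abundant genes in the scaling. Col5a3, the gene of a chain found in fewer tissues, was at 33.1 in WT and 17.7 in KO (ratio 0.534, 0.503 to 0.566). The level of Col5a3 relative to Col5a1 was 0.416 in WT and 0.236 in KO. The minor fibrillar genes had ratios on opposite sides of 1. Col27a1 was at 4.98 in WT and 2.09 in KO (ratio 0.421, 0.362 to 0.489), and Col24a1 at 0.430 and 1.19 (ratio 2.77, 1.98 to 3.95), the latter from about 48 and 134 fragments. The added 1 kept both inside the rule, and Col27a1 was called lower without the 50 most abundant genes in the scaling. With the median instead of the longest transcript length, the interval of Col24a1 was 1.17 to 7.11. Over the 8 fibrillar genes the median log2 ratio was -0.29, with 6 below 0 and 2 above, and 0 past the rule in either direction.

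**Figure D2:**
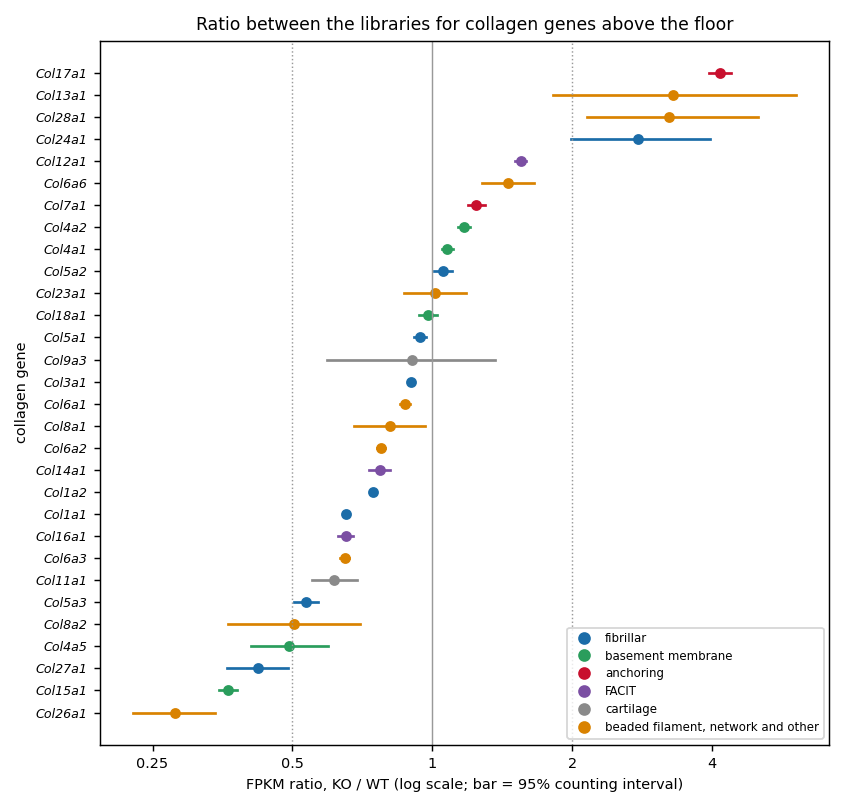
FPKM ratio of KO over WT for the 30 collagen genes above the floor, in ascending order on a log scale, coloured by class; bars are 95% counting intervals, the solid line marks equality and dotted lines a 2-fold ratio. Col17a1 stands at 4.16 and Col26a1 at 0.279. Among abundant dermal genes, Col1a1, Col1a2, Col6a2 and Col6a3 lie between 0.648 and 0.776, Col6a1 at 0.875 and Col3a1 at 0.900.

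The basement membrane class held both nearly equal and strongly different members. Col4a1 and Col4a2 encode the chains of the collagen IV found in almost all basement membranes, and both had ratios slightly above 1, that of Col4a1 crossing 1 without the 50 most abundant genes in the scaling. Col4a1 was at 98.0 in WT and 105 in KO (ratio 1.08, 1.05 to 1.11), and Col4a2 at 84.9 and 99.5 (ratio 1.17, 1.14 to 1.21). The genes lie head to head on chromosome 8, and their annotated first exons overlap by 22 bases on opposite strands, so a read within these bases cannot be assigned without strand. These bases are shown as each transcript begins, from RefSeq (GRCm38.p6).
Col4a2 (chr8:11312805-11312826, + strand): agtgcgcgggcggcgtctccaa
Col4a1 (chr8:11312805-11312826, - strand): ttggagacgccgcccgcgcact
Col4a1 stood at 1.15 times Col4a2 in WT and 1.06 times in KO. Col4a5 and Col4a6, a second head-to-head pair on the X chromosome whose chains occur in the basement membrane under the epidermis, were low and had ratios below 1. Col4a5 was at 3.32 in WT and 1.63 in KO (ratio 0.492, 0.408 to 0.595), inside the rule through the added 1, and Col4a6 stayed under the floor at 0.914 and 0.545 (ratio 0.596, 0.422 to 0.838). Col4a3 and Col4a4, known from the glomerulus of the kidney, were below 0.5 in both libraries.

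Col15a1 had the largest difference of the basement membrane class. Collagen XV is a proteoglycan of the outer face of basement membranes around vessels, muscle fibres, nerves and fat cells. Col15a1 (ENSMUSG00000028339, on chromosome 4) was at 90.7 in WT and 32.9 in KO, a ratio of 0.363 (0.347 to 0.379) and a log2 ratio of -1.44, from about 7337 and 2673 fragments. Of all genes above the floor, 1.25% had a lower log2 ratio. Its exons share 14 bases with a gene on the opposite strand that is listed at 0 in both libraries. Col18a1, the gene of the closely related collagen XVIII whose end is released as endostatin, was at 46.7 in WT and 45.7 in KO (ratio 0.979, 0.937 to 1.02), a ratio that crossed 1 under median of ratios scaling. Among markers of cells that collagen XV surrounds, 7 of 7 adipocyte genes had log2 ratios below 0, where 57.4% of all genes did. Of the 7, 2 were past the rule (Adipoq at 169 in WT and 75.7 in KO, and Lep at 4.72 and 1.27), while Cfd was nearly equal (438 and 436). The adipocyte list summed to an FPKM of 1879 in WT and 1317 in KO. The 8 endothelial markers summed to 133 in WT and 122 in KO, with 0 past the rule and log2 ratios from -0.27 to 0.25. The 8 pericyte and smooth muscle markers summed to 335 and 224, with 0 past the rule, and the 8 skeletal muscle markers to 7099 and 8284, with 2 higher. The 6 Schwann cell markers, of nerves, summed to 60.9 in WT and 79.9 in KO, with 1 higher and 1 lower. Beside these marker counts, 7.59% of all genes above the floor were higher and 4.09% lower. The part of these cell types in the difference of Col15a1 was not tested.

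The anchoring collagens of the dermal-epidermal junction both had ratios above 1, that of collagen XVII far more than that of collagen VII. Col17a1 (ENSMUSG00000025064, chromosome 19, 47646344 to 47692094) was at 19.3 in WT and 80.2 in KO, a ratio of 4.16 (3.95 to 4.39) and a log2 ratio of 2.002, and 2.04% of all genes above the floor had a higher one. Col7a1 (chromosome 9), made by keratinocytes and fibroblasts, was at 27.4 in WT and 34.1 in KO, a ratio of 1.24 (1.19 to 1.30), inside the rule. The level of Col17a1 relative to Col7a1 was 0.702 in WT and 2.35 in KO, so the order of the pair was opposite in the libraries. Other hemidesmosome and basal layer genes had ratios from below 1 to well above it. Itga6 was at 23.3 in WT and 87.4 in KO (ratio 3.75), Itgb4 at 17.3 and 52.6 (ratio 3.04), and Lamb3, a chain of the laminin they bind, at 13.3 and 44.4 (ratio 3.33). Dst, whose epithelial product links the hemidesmosome to keratin, was inside the rule at 20.8 and 34.3 (ratio 1.65). Of the 9 basal keratinocyte markers 6 were higher and 0 lower, where 7.59% and 4.09% of all genes were, with a median log2 ratio of 1.55. Trp63 and Cdh3, a transcription factor and a cadherin of basal cells, were not higher (36.4 in WT and 32.5 in KO, and 46.8 and 39.4). The part of basal keratinocyte number in the ratio of Col17a1 was not tested.

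Bases upstream of Col17a1 are shown because it is the collagen gene with the largest difference. They are from RefSeq (GRCm38.p6, chr19:47692095-47692292, - strand), end 52 bases before the RefSeq start, where the first GENCODE exon begins, and carry each TATAAA match in capitals.
Col17a1: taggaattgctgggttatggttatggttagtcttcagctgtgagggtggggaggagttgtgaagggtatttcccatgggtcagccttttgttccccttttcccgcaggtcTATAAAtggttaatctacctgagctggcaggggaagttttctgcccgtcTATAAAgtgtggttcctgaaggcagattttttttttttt
The matches begin at positions -140 and -91 relative to the RefSeq start, and a CCAAT match at -31 lies in the bases not shown. Searched on both strands over the 250 bases before the start, TATAAA was found in 5 of the 35 collagen genes with a promoter entry (14.3%) and in 12.97% of 27025 genes. CCAAT was found in 12 collagen genes (34.3%) and 34.5% of all genes. GGGCGG, the letters of a GC box, was found in 21 collagen genes (60.0%) and in 32.9% of all genes, though not in Col17a1. TGANTCA, the letters of an AP-1 site, was found in 1 collagen gene (2.86%) and 6.87% of all genes, and in Col17a1 there was no match within this window. These matches describe letters and not sites of binding.

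**Figure D3:**
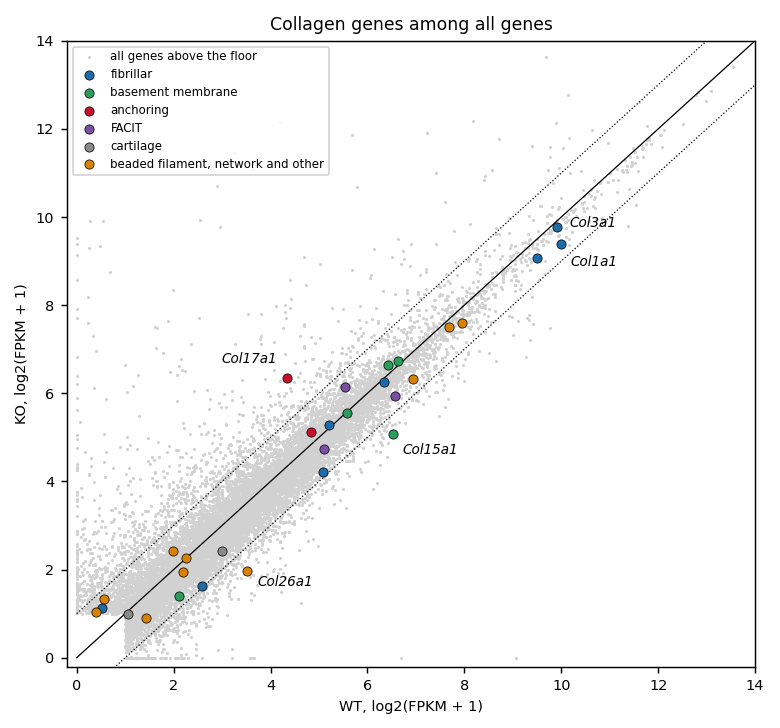
Level in KO against level in WT, as log2(FPKM + 1), for all 14541 genes above the floor (grey) and the 30 collagen genes among them (coloured by class); the solid line marks equality and dotted lines the 2-fold rule. Col17a1 lies above the upper dotted line, Col15a1 and Col26a1 lie below the lower one, and the other collagens lie between.

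FACIT collagens lie on the surface of collagen fibres, and the 3 above the floor parted in direction. Col12a1, whose product is prominent in dense and mechanically loaded connective tissue, was at 45.3 in WT and 70.1 in KO (ratio 1.55, 1.51 to 1.59). Col14a1, the gene of the structurally similar collagen XIV, was at 33.5 in WT and 25.8 in KO (ratio 0.770, 0.731 to 0.810). Col16a1 was at 93.3 and 60.7 (ratio 0.651, 0.628 to 0.674), the same ratio as Col1a1 to 3 digits. None of the 3 passed the 2-fold rule. Col19a1, Col20a1 and Col22a1 did not reach 1 FPKM in either. Of these, Col22a1, known from the junction of muscle and tendon and of hair follicle, was at 0.366 in WT and 0.0841 in KO, about 50 and 12 fragments.

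Cartilage collagens were near the lower end of detection in both libraries. Col2a1, the main collagen of cartilage, was at 0.214 in WT and 0.0448 in KO, and Col10a1, of growth plate cartilage, was listed at 0 in WT and at 0.0401 in KO. Col9a1, Col9a2 and Col11a2 were below 1 in both, and Col9a3 was at 1.08 and 0.975, with an exon overlap of 234 bases with Tcfl5 on the opposite strand. Col11a1, which is also made outside cartilage, was the exception at 7.02 in WT and 4.32 in KO (ratio 0.615, 0.550 to 0.687). Of 12 chondrocyte markers 3 reached the floor, namely Sox9, Matn4 (5.27 in WT and 7.44 in KO) and Acan, the core proteoglycan of cartilage (2.78 and 0.902, ratio 0.324), which was just inside the rule. Matn1 and Epyc were listed at 0 in both libraries and Matn3 was at or below 0.0223. Snorc was listed at 0 in WT and at 0.991 in KO, just under the floor. Under median of ratios scaling 1 marker of this list was higher, and without the 50 most abundant genes in the scaling 1 was lower. The 12 markers summed to 41.1 in WT and 37.5 in KO, most of it Sox9 (32.4 and 27.5), which hair follicles also express.

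Collagen VI was the next most abundant after the fibrillar genes, and the ratios of its 3 major chains were below 1. Its monomer takes 1 chain from each of Col6a1, Col6a2 and Col6a3. Col6a1 was at 205 in WT and 179 in KO (ratio 0.875, 0.853 to 0.897), Col6a2 at 248 and 192 (ratio 0.776, 0.759 to 0.793), and Col6a3 at 123 and 79.4 (ratio 0.648, 0.633 to 0.663). The intervals of these ratios do not overlap, so the chains differed from each other beyond counting error. Col6a3 stood at 0.598 of Col6a1 in WT and 0.443 in KO. Col6a6, of the alternative chains encoded side by side on chromosome 9, was at 2.99 in WT and 4.35 in KO (ratio 1.45, 1.28 to 1.65), while its neighbours Col6a5 and Col6a4 stayed below 0.5 in both.

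Of the remaining genes, which include network and transmembrane collagens and others, Col26a1 had the largest difference. Col26a1 (ENSMUSG00000004415, on chromosome 5) was at 10.5 in WT and 2.93 in KO, a ratio of 0.279 (0.227 to 0.340) and a log2 ratio of -1.55, the lowest of all collagen genes, and 0.949% of all genes had a lower one. The value rests on about 457 and 128 fragments. Col8a1 and Col8a2, which form the hexagonal network of vessel walls and the cornea, were at 3.56 and 2.88, and at 1.71 and 0.860. Col23a1, a transmembrane collagen, was at 3.79 in WT and 3.83 in KO (ratio 1.01, 0.869 to 1.18, below 1 without the 50 most abundant genes in the scaling). Col13a1, a transmembrane collagen of cell contacts, was at 0.321 and 1.06 (ratio 3.29, 1.82 to 6.07), and Col28a1, known from peripheral nerve, at 0.469 and 1.52 (ratio 3.23, 2.15 to 5.02). The added 1 kept both inside the rule, and they rest on about 16 and 52, and 31 and 101, fragments. Schwann cell markers were mixed, with Sox10 lower (15.3 in WT and 6.43 in KO), Mbp higher (9.65 and 22.6) and the other 3 above the floor inside the rule, and their part in the value of Col28a1 was not tested. Col25a1 stayed under the floor at 0.542 and 0.300.

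The 14 collagen genes under the floor reached at most 0.966 FPKM and about 95 fragments in a library. Of their ratios, 5 had counting intervals that hold 1, 5 lay wholly below and 3 wholly above with the longest transcript length, and Col10a1 has no ratio. With the median transcript length, the intervals of Col2a1, Col9a2, Col25a1, Col19a1 and Col6a4 also held 1, so these differences are not beyond counting error in both settings. Above the floor, 17 intervals lay wholly below 1, 10 wholly above and 3 held 1. With the median instead of the longest transcript length 5 held 1, Col4a1 and Col5a2 joining them. Under the reported scaling, most collagen genes above the floor thus differed between these libraries by more than counting error. No such counts are given for all genes, so these do not set the collagen genes apart. The intervals also leave out the choice of scaling. Median of ratios scaling multiplies every ratio by 1.07, and scaling without the 50 most abundant genes by 0.914, which carried some ratios across 1. Animal-to-animal spread is unmeasured.

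Genes that modify, fold, process, cleave and bind collagen were read beside the collagen genes. Of 57 such genes above the floor 6 were higher and 1 lower (10.5% and 1.75%, beside 7.59% and 4.09% of all genes), with a median log2 ratio of 0.12. The 5 higher genes of the cleavage list were Mmp3 (0.383 in WT and 3.98 in KO), Mmp9 (0.0687 and 5.67), the collagenases Mmp8 (0.0279 and 1.52) and Mmp13 (0.0240 and 3.03), and the inhibitor Timp1 (9.58 and 44.8). The abundant membrane-bound protease Mmp14 was at 155 in WT and 137 in KO, Mmp2 at 61.9 and 88.4, Timp3 at 50.8 and 31.4, and the cathepsin Ctsk at 42.2 and 33.2. Of the 8 macrophage markers 7 were higher and 0 lower, where 7.59% and 4.09% of all genes were. These markers summed to 152 in WT and 407 in KO, and their part in the values of the cleavage list was not tested.

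Of the 13 folding and secretion genes 1 was lower in KO and 0 higher, where 4.09% and 7.59% of all genes were. A count this small does not set the list apart from other genes. Serpinh1, the chaperone HSP47 that binds the folded triple helix, was at 355 in WT and 198 in KO (ratio 0.558, 0.542 to 0.575). Fkbp14, a prolyl isomerase of collagen folding, was the 1 lower gene of its list, at 6.10 and 2.14 (ratio 0.351, 0.275 to 0.447). Sparc, a collagen-binding matrix protein, was at 1525 in WT and 966 in KO, and Creb3l1, a transcription factor of collagen secretion, at 14.2 and 8.92. The general chaperones of the endoplasmic reticulum had ratios above 1, with Calr at 168 in WT and 275 in KO and Hspa5 at 86.4 and 133. The median log2 ratio of the list was -0.06, and 0.03 under median of ratios scaling.

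Hydroxylation makes the triple helix stable at body temperature. Of 16 hydroxylation and glycosylation genes above the floor 1 was higher and 0 lower, where 7.59% and 4.09% of all genes were, so the count is near the background. The higher gene was P3h2, a prolyl hydroxylase of basement membrane collagen, at 1.22 in WT and 3.84 in KO (ratio 3.16, 2.38 to 4.30). Fkbp10 was at 45.6 and 30.6 (ratio 0.671) and Crtap, a partner of the prolyl hydroxylase of fibrillar collagen, at 86.6 and 60.4 (ratio 0.697). Tmem38b was at 8.59 and 13.1 (ratio 1.52), and P4ha3, a catalytic subunit of prolyl 4-hydroxylase, at 0.964 and 1.84 (ratio 1.91, 1.26 to 2.94). The median of the list was -0.04, and 0.05 under median of ratios scaling.

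All processing, crosslinking and receptor genes above the floor were inside the 2-fold rule. For Pcolce2 (ratio 2.28, 1.73 to 3.02) and Itga2 this was through the added 1. Among 5 propeptide processing genes above the floor the largest log2 ratios were those of Pcolce2 (1.09 in WT and 2.49 in KO), Adamts2 (12.6 and 18.2) and Bmp1 (38.8 and 51.3), with a list median of 0.39. Among 6 crosslinking genes, the transglutaminase Tgm2 was at 22.7 in WT and 34.5 in KO, the lysyl oxidase Loxl2 at 10.7 and 7.94, and Loxl4 at 0.532 and 1.01, with a median of 0.22. Of the 7 receptor genes above the floor, the collagen-sensing kinase Ddr2 was at 4.21 and 8.35 (ratio 1.99), the integrin subunit Itga2 of keratinocytes at 0.287 and 1.24 (ratio 4.34, 2.93 to 6.56), and Itgb1 at 69.3 and 96.8. The list median was 0.24.

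Of 14 regulators of collagen genes 2 were higher and 1 lower, where 7.59% and 4.09% of all genes were, and without the 50 most abundant genes in the scaling 0 were higher. The receptor gene Tgfbr2 was at 14.3 in WT and 30.6 in KO (ratio 2.14, 2.03 to 2.27), and Ctgf, a target and cofactor of the TGF-beta pathway, at 9.06 and 20.6 (ratio 2.28, 2.01 to 2.59). Sox5, a partner of Sox9 in cartilage, was at 4.66 and 1.80 (ratio 0.387, inside the rule under median of ratios scaling). The ligands Tgfb1, Tgfb2 and Tgfb3 were at 32.2 and 31.0, at 4.60 and 4.18, and at 10.57 and 7.69, and of the genes inside the rule Runx2 (3.31 and 1.89), Tgfb3 and Sox6 (0.621 and 1.09) had the log2 ratios farthest from 0.

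**Figure D4:**
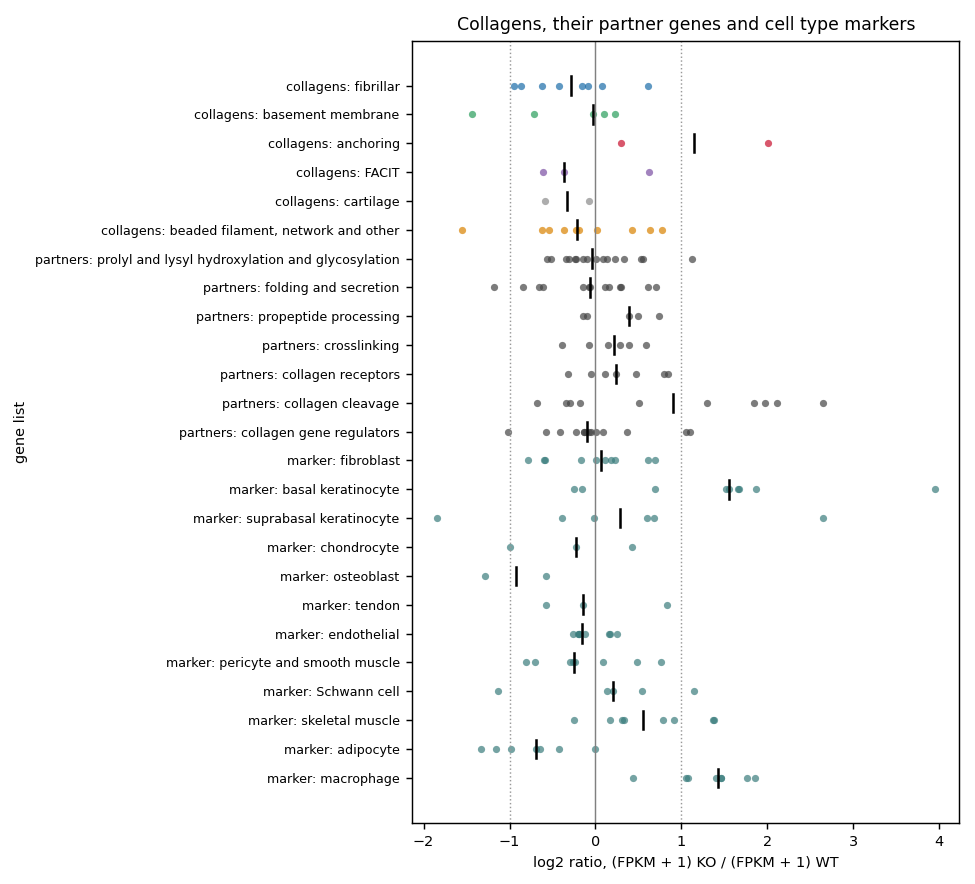
Log2 ratio of (FPKM + 1) in KO over WT for each gene above the floor (points), with the median of its list (black bar), for the collagen classes, the lists of partner genes and the cell type markers; the solid line marks 0 and dotted lines the 2-fold rule. The basal keratinocyte markers and the macrophage markers have medians above 1 (1.55 and 1.43). The anchoring class has only 2 genes, Col17a1 at 2.002 and Col7a1 at 0.303, so its median of 1.15 lies between them. The median of the fibrillar collagens is -0.29.

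Fibroblast markers had ratios on both sides of 1. Of 10 fibroblast markers 0 passed the 2-fold rule, the median log2 ratio was 0.06 (-0.07 without the 50 most abundant genes in the scaling) and their summed FPKM was 944 in WT and 830.1 in KO. The collagen-associated proteins Dpt (184 in WT and 106 in KO), Lum (111 and 72.4) and the transcription factor gene Twist2 (62.8 and 41.3) had ratios of 0.580, 0.655 and 0.658, near those of Col1a1, Col6a3 and Col16a1. The receptor gene Pdgfra (11.97 and 18.8) and Fbln1 (33.2 and 54.3) had ratios of 1.57 and 1.64, and Dcn was at 251 and 222. Of the 7 osteoblast markers 5 were under the floor, with Ibsp listed at 0 in both libraries and Bglap and Bglap2 at 0 in KO, while Alpl was lower, at 4.78 in WT and 1.37 in KO. The 5 tendon markers summed to 33.7 in WT and 35.9 in KO, with 3 above the floor and 0 past the rule. Of the 6 suprabasal keratinocyte markers Krtdap was higher (1121 in WT and 7013 in KO) and Krt10 lower (678 and 188). Of their log2 ratios 3 were above 0 and 3 below. Their sum was 3080.4 in WT and 8850 in KO, with most of the KO sum from Krtdap.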

How the data were processed

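RNA of skin was sequenced in 2 libraries after a directional library preparation, per the labels' protocols. The submitters' processing notes list HISAT2 2.0.4, cutadapt 1.9.1 and Cufflinks 2.2.1 with the build GRCm38. Per the file headers, the deposited gene table has Cuffdiff's columns, with FPKM per gene in each library and the authors' p-value and q-value. A deposited sheet gives the count of reads and the fraction aligned, per the file headers. The sources used here do not give the annotation release, the use of strand or the handling of shared reads.

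Coordinates, transcript lengths and overlaps come from GENCODE mouse release 21 (GRCm38, 1-based), which held 43831 of 44166 gene identifiers and restored 26 symbols stored as dates. Fragments were estimated from FPKM, the longest transcript and the FPKM step of 1 fragment. The step was sought in single-transcript genes of at least 3000 bases. There, 78.6% of 402 low values in WT and 77.1% of 401 in KO lay within 0.25 of a whole number of steps. A step fixed beforehand would give 50% by chance. The step was fitted to these same values, so that level is too low a comparison. An FPKM of 1 over 2 kb is about 31.3 fragments in WT and 31.4 in KO. The script was tested on simulated data. Fragments without molecular identifiers are not independent molecules, so intervals can be too narrow.

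The pseudocount was 1, the floor an FPKM of 1 and the threshold 2-fold. Every collagen gene is accounted for, those at 5 FPKM or more or past the threshold with both values. Of each partner list, the genes past the threshold and up to 3 others above the floor with the largest absolute log2 ratio are named. A few more (Crtap, Creb3l1, Mmp14, Calr, Hspa5, Mbp, Tgfb1, Tgfb2, Pdgfra, Fbln1, Itga6, Itgb4, Lamb3, Dst, Trp63 and Cdh3 among them) were named after their values were seen. Members, classes and lists were chosen with earlier results of these data known. Ctage5 of the folding list was not found in the table. Python 3.11.15 with pandas 2.3.3 and scipy 1.17.1 was used.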

Additional observations from a re-analysis of the deposited data

How the results depend on the processing

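With 1 library per genotype, no replicate could be left out, and no paired analysis was possible because each genotype has a single library. The collagen genes called higher numbered 4 with a pseudocount of 0.1 (Col13a1, Col24a1 and Col28a1 besides Col17a1, beside 10.2% of all genes) and 5 at a 1.5-fold threshold (14.3% of all genes). The collagen genes called lower numbered 3 with a pseudocount of 0.1 (7.46% of all genes) and 9 at the 1.5-fold threshold (13.8%). They numbered 1 with a pseudocount of 5 (Col15a1, beside 1.13% of all genes). Without the 8 members above the floor whose exons overlap another gene they numbered 1 (Col26a1, beside 4.09%). Col17a1 was called higher in each of these settings. The median log2 ratio of collagen genes, -0.17 as reported, was -0.28 with a floor of 5 FPKM, -0.30 when scaling ignored the 50 most abundant genes, -0.0747 with median of ratios scaling and -0.36 without overlapping members. Median of ratios scaling moved the median ratio of collagen genes to 0.949 and carried Col5a1 and Col18a1 across 1, and it turned the basement membrane median from -0.03 to 0.07. Scaling without those 50 genes shifted the median of all genes by -0.12 and carried Col5a2, Col4a1 and Col23a1 across 1. The share of all large differences that were higher was 65.0% as reported and 54.5% in that setting, where the fibroblast marker median turned from 0.06 to -0.07. With collagens II, IX, X, XI and XVII placed by structure, the fibrillar median was -0.43, the FACIT median -0.22 and Col7a1 alone made the anchoring class. Without the 50 genes in the scaling, Tgfbr2 and Ctgf were no longer called, and 5 of the 8 macrophage markers were higher, where 6.54% of all genes were. Depth limits the genes under the floor.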

Other observations

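Genes with collagen-like repeats that are not numbered collagens were read from a list made after the data were seen, so it is a description only. Of 25 such genes above the floor, 5 were higher in KO and 2 lower, where 7.59% and 4.09% of all genes were, with a median log2 ratio of -0.17. The higher genes are products of macrophages and related cells. They are the complement genes C1qa (55.0 in WT and 147 in KO), C1qb (54.5 and 152) and C1qc (47.6 and 129), the ficolin Fcna (6.05 and 15.9) and the scavenger receptor Msr1 (0.506 and 3.18). The lower genes are the adipocyte hormone gene Adipoq (169 and 75.7) and its relative C1qtnf9 (5.73 and 2.24). Genes just inside the rule include Cthrc1, a secreted protein of matrix-producing cells (17.2 and 8.31), Emid1 (11.7 and 5.61) and C1qtnf6 (46.2 and 24.7). Eda, the transmembrane ligand of hair follicle development, was at 2.30 and 1.60.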
